A study of Mus musculus with 4 samples.

Results

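Genes of the Wnt signalling pathway were followed in mouse embryonic stem (ES) cells, the self-renewing cells of the early embryo, some of them labelled as lacking Ring1B, or Ring1A and Ring1B, subunits of the Polycomb complex PRC1. The genes were chosen by name, as 44 ligands, receptors, intracellular effectors and antagonists of the pathway. Of these, 43 had at least 1 probe set named for that gene alone, 90 probe sets in all, out of 18194 named genes and 45101 probe sets on the array. Tcf7 was not analysed here. The 43 comprise 17 Wnt ligands, 12 receptors (10 Frizzled genes, Lrp5 and Lrp6), 5 effectors and 9 antagonists.

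Wnt ligands are secreted, lipid-modified proteins that bind a Frizzled receptor together with Lrp5 or Lrp6. Without a ligand, an Axin scaffold holds beta-catenin in a complex that marks it for destruction; with a ligand, beta-catenin accumulates, enters the nucleus and joins factors of the TCF/LEF family on DNA. Dkk1 and Dkk2 bind the Lrp co-receptors, Sfrp proteins bind the ligands, and Nkd proteins act on Dishevelled inside the cell. Members of these families can damp the signal, and all those listed, the divergent Dkk3 included, are grouped here as antagonists. In mouse ES cells the pathway favours self-renewal, in part by relieving repression by Tcf7l1, and PRC1, in which Ring1A and Ring1B are alternative catalytic subunits, is a chromatin complex that keeps genes repressed.

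Total RNA was hybridised to 4 arrays, 1 per group. One pair comprised ES cells with a constitutive Ring1B KO and ES cells labelled wild-type as their control, and the other comprised conditional Ring1A/B double KO cells at day 4 and ES cells labelled wild-type as theirs. The series' design text states that the double KO was made conditional with OHT because such cells cannot be kept constitutively. The labels give no strain, clone, allele design or driver of the deletion, and do not say whether the control of the conditional cells had received OHT. With 1 array per group no difference has a replicate check and no test was made, and precision is limited by this number. Signals are MAS5 intensities brought to a common 2%-trimmed mean of 277, and values at or under a floor of 36.6 were treated as equal to it. A fold whose dim side lay at the floor is written as "at least". In each pair the control value is given first and the KO value second, and log2 differences are KO minus its own control unless stated otherwise. Arrays are named by their labels, because the targeted genes did not settle them: Rnf2 (Ring1B) at probe set 1424873_at read 2579.7 and 2775, then 2182 and 1986, and Ring1 (Ring1A) read 146 and 164, then 44.7 and 55.6. Whether these probe sets lie in deleted sequence is not known here, and one outside it checks nothing. All 12 ES cell markers examined, Pou5f1, Nanog and Sox2 among them, were above the floor on each array, though not level. In the Ring1B pair 10 were lower at any size (as were 6405 of 12344 named genes) and 0 were 2-fold apart. In the double KO pair 10 were higher (as were 5599 of 12354). Of these, Nr0b1 (649 then 3167) and Tdgf1 (3814 then 7774) passed 2-fold, beside 3.02% of all named genes. The summed signal of the 12 was 63402 then 52648 in the Ring1B pair and 51165 then 69373 in the double KO pair.

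Of the 43 genes, 35 were above the floor on at least 1 array and 24 on each of the 4, against 13082 and 10303 of all 18194 named genes. Between 27 (double KO) and 33 (Ring1B KO) were above it on a single array. The 8 at or under the floor on every array were the ligand genes Wnt1, Wnt2, Wnt2b, Wnt3, Wnt8a, Wnt10b and Wnt16 and the co-receptor gene Lrp5, each measured by 1 probe set. No detection call was used, so such a gene is unmeasured at this signal rather than shown to be silent.

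The Ring1B comparison asks which of these transcripts differ in cells labelled as lacking Ring1B alone. In the array labelled Ring1B KO, the Dickkopf antagonist gene Dkk1 was 6.55-fold higher, the TCF/LEF gene Lef1 at least 2.59-fold higher and the second Dickkopf gene Dkk2 at least 2.16-fold higher. These 3 were the only ones of 33 genes above the floor on either array to reach 2-fold upward, and 0 reached it downward. Upward differences of this size were seen in 3.54% of all named genes and downward ones in 2.61%, and the count of 3 is 9.09% of the 33. No ligand and no receptor gene was called 2-fold apart at its probe set of highest mean. The median log2 difference of the 33 was 0.046, beside -0.017 over 12344 genes.

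The double KO comparison asks the same of cells labelled as lacking Ring1A and Ring1B. Here 9 of 32 genes were at least 2-fold lower in the array labelled double KO, namely the ligand genes Wnt4 and Wnt11, the receptor genes Fzd1, Fzd2, Fzd3 and Fzd9, the feedback scaffold gene Axin2 and the antagonist genes Sfrp2 and Dkk3. Another 3 were at least 2-fold higher, the receptor genes Fzd5 and Fzd7 and the antagonist gene Sfrp4. Over all named genes the shares were 9.99% downward and 3.02% upward, beside 28.1% and 9.38% of the 32. The median over the 32 was -0.57, beside -0.055 over 12354 genes, and 23 of the 32 were lower at any size, beside 6755 of the 12354. With arrays brought to a common median instead, the split over all genes went from 373 higher and 1234 lower to 609 and 979.

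**Figure D1:**
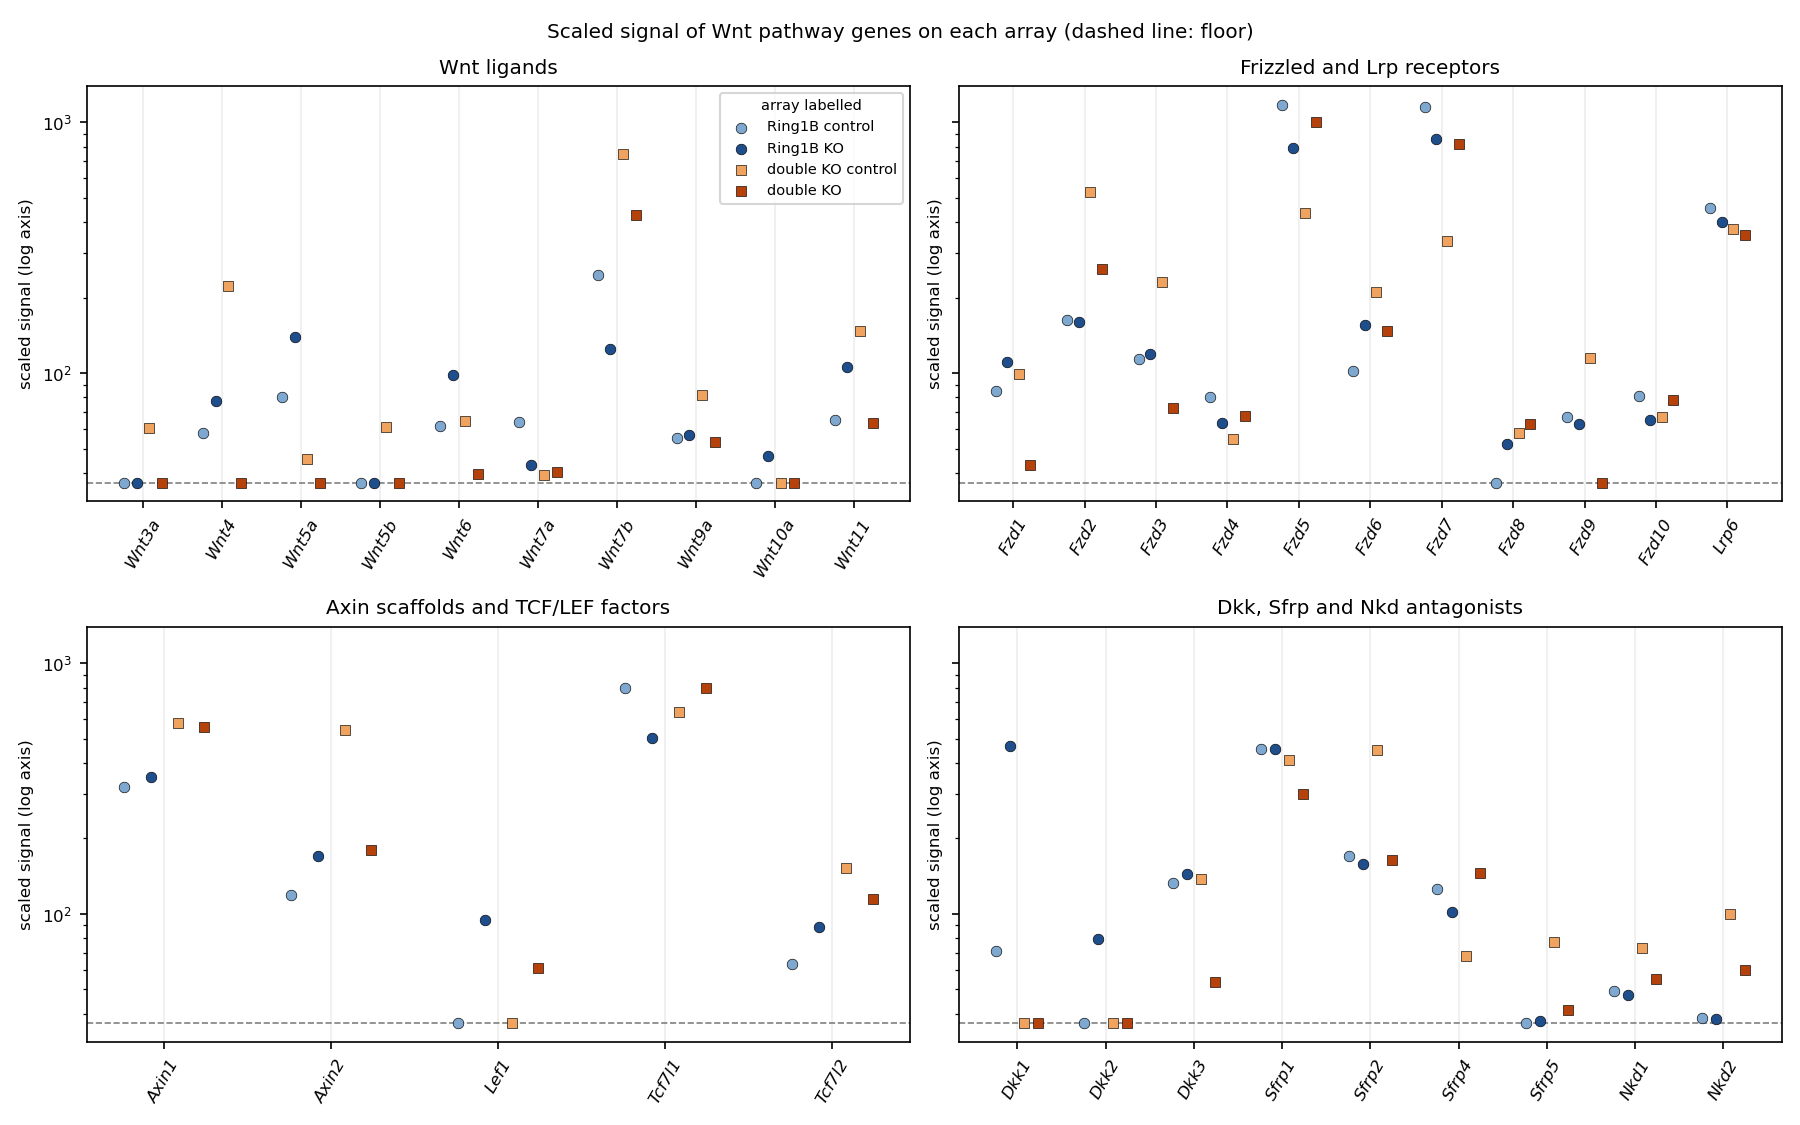
Scaled signal, on a log axis, of the 35 genes above the floor on at least 1 array, by role; each point is 1 array, and points on the dashed line were at or under the floor of 36.6. Dkk1 stands at 468 on the array labelled Ring1B KO against 71.4 on its control, and Axin2 and Wnt4 stand highest on the array labelled double KO control.

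Among the ligand genes, Wnt4, which encodes a ligand known from kidney and gonad development, had the widest range in the double KO pair. It read 57.9 then 77.4 in the Ring1B pair and 223 then 32.4 in the double KO pair. The double KO control was thus the high array and the other 3 were low, the array labelled double KO being under the floor, at least 6.09-fold lower than its control. Its other probe set was under the floor on each array. Wnt11, which encodes a ligand of cell movement in gastrulation, read 65.0 then 106 in the Ring1B pair and 148 then 63.2 in the double KO pair, again highest on the double KO control and 2.34-fold lower in the array labelled double KO. In the Ring1B pair the KO value was the higher one for Wnt4 and Wnt11, by 0.42 and 0.70 on the log2 scale, under 2-fold.

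Wnt7b, a ligand gene of placenta, lung and neural tissue, was the ligand gene lower than its own control in both comparisons. Probe set 1420892_at read 246 then 125 in the Ring1B pair and 751 then 426 in the double KO pair, log2 differences of -0.97 and -0.82, neither reaching 2-fold. Probe set 1420891_at, which did reach it in the Ring1B comparison, read 95.8 then 39.4 in the Ring1B pair and 181 then 125 in the double KO pair, differences of -1.28 and -0.53. Both arrays of the double KO pair were above both of the Ring1B pair at each of these probe sets. The double KO control exceeded the Ring1B control by 1.61 and 0.92 at the first and the second. Wnt5a, a ligand that mainly acts without beta-catenin, read 80.3 then 139 in the Ring1B pair and 45.4 then 19.8 in the double KO pair at probe set 1436791_at. Probe set 1448818_at read 82.5 then 134 in the Ring1B pair and 32.6 then 12.3 in the double KO pair, so that the Ring1B pair was the higher one at both. At these probe sets the array labelled Ring1B KO exceeded its control by 0.79 and 0.70, while the double KO array was under the floor at both.

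The remaining ligand genes were dim. Wnt6 read 61.3 then 98.5 in the Ring1B pair and 64.2 then 39.4 in the double KO pair. Wnt7a read 63.6 then 43.0 in the Ring1B pair and 39.2 then 40.2 in the double KO pair. Wnt9a read 54.9 then 56.7 in the Ring1B pair and 82.0 then 53.0 in the double KO pair. None of these 3 was 2-fold apart in either comparison. Wnt3a and Wnt5b were above the floor on the double KO control alone, at 60.4 and 61.1, and Wnt10a on the array labelled Ring1B KO alone, at 46.9. The median over ligand genes was 0.39 over the 8 measured in the Ring1B comparison, which turned to -0.41 under a floor at the 60th percentile, and -0.72 over the 9 measured in the double KO comparison, of which 8 were lower. In the RefSeq gene order of GRCm38.p6, Wnt6 lies next to Wnt10a on chromosome 1, Wnt3a next to Wnt9a on chromosome 11 and Wnt10b next to Wnt1 on chromosome 15. Wnt6 and Wnt10a were each higher in the array labelled Ring1B KO, by 0.68 and at least 0.36, as were 6 of the 8 ligand genes measured. In that comparison Wnt9a differed by 0.046 and Wnt3a was unmeasured. Wnt3a and Wnt9a were each lower in the array labelled double KO, at -0.72 (a bound) and -0.63, as were 8 of 9 ligand genes. There Wnt6 differed by -0.71 and Wnt10a was unmeasured. Wnt10b and Wnt1 were unmeasured in both comparisons. Whether neighbours vary together was not tested. The measured sizes are under 2-fold and the bounds are lower limits.

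The Frizzled receptor genes split in the double KO pair. Fzd5, whose product is needed in the yolk sac and eye, read 1174 then 789.6 in the Ring1B pair and 435 then 999.6 in the double KO pair. Fzd7, a receptor linked to ES cell self-renewal, read 1147 then 857 in the Ring1B pair and 336 then 821 in the double KO pair. For both, the double KO control was the low array of the 4, and the array labelled double KO was 2.3-fold higher and 2.44-fold higher than its control. Each gene's second probe set went the same way by at least 2-fold. For Fzd5, 1422937_at read 177 then 218 in the Ring1B pair and 55.8 then 271 in the double KO pair. For Fzd7, 1450043_at read 84.7 then 36.0 in the Ring1B pair and 5.01 then 94.3 in the double KO pair. The Fzd7 probe set 1450043_at was also lower in the array labelled Ring1B KO than in its control, at least 2.31-fold lower, whereas the brighter one differed there by -0.42.

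The opposite direction was taken by 4 other Frizzled genes. Fzd3, a receptor of axon guidance and planar polarity, read 114 then 119 in the Ring1B pair and 230.0 then 72.6 in the double KO pair and was 3.17-fold lower in the array labelled double KO; all 3 of its other probe sets above the floor were lower too, of which 1450135_at by at least 2-fold, at 148 and 62.2. Fzd2 read 163 then 159.9 in the Ring1B pair and 526 then 259 in the double KO pair and was 2.03-fold lower, at the threshold itself, and its probe sets 1418533_s_at and 1418534_at differed by -0.69 and -0.025. Fzd9 read 66.7 then 62.5 in the Ring1B pair and 115 then 23.8 in the double KO pair, with the double KO array alone under the floor, and was at least 3.15-fold lower. Fzd1 read 84.6 then 111 in the Ring1B pair and 98.8 then 43.2 in the double KO pair and was 2.29-fold lower, with the double KO array below each of the other 3. Neither Fzd1 nor Fzd2 kept a 2-fold difference under quantile normalization, at -0.93 and -0.89.

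The other receptor genes were not called 2-fold apart in either comparison. Lrp6, which encodes the co-receptor, read 455 then 399 in the Ring1B pair and 375 then 354 in the double KO pair, a narrow range on the 4 arrays. Fzd4 differed by -0.35 and 0.30 in the Ring1B and double KO comparisons, Fzd6 by 0.62 and -0.51, Fzd8 by 0.52 (a bound) and 0.12, and Fzd10 by -0.32 and 0.22. Over the 11 receptor genes measured, the median was -0.094 in the Ring1B comparison and -0.083 in the double KO comparison, the latter a balance of 5 higher and 6 lower.

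**Figure D2:**
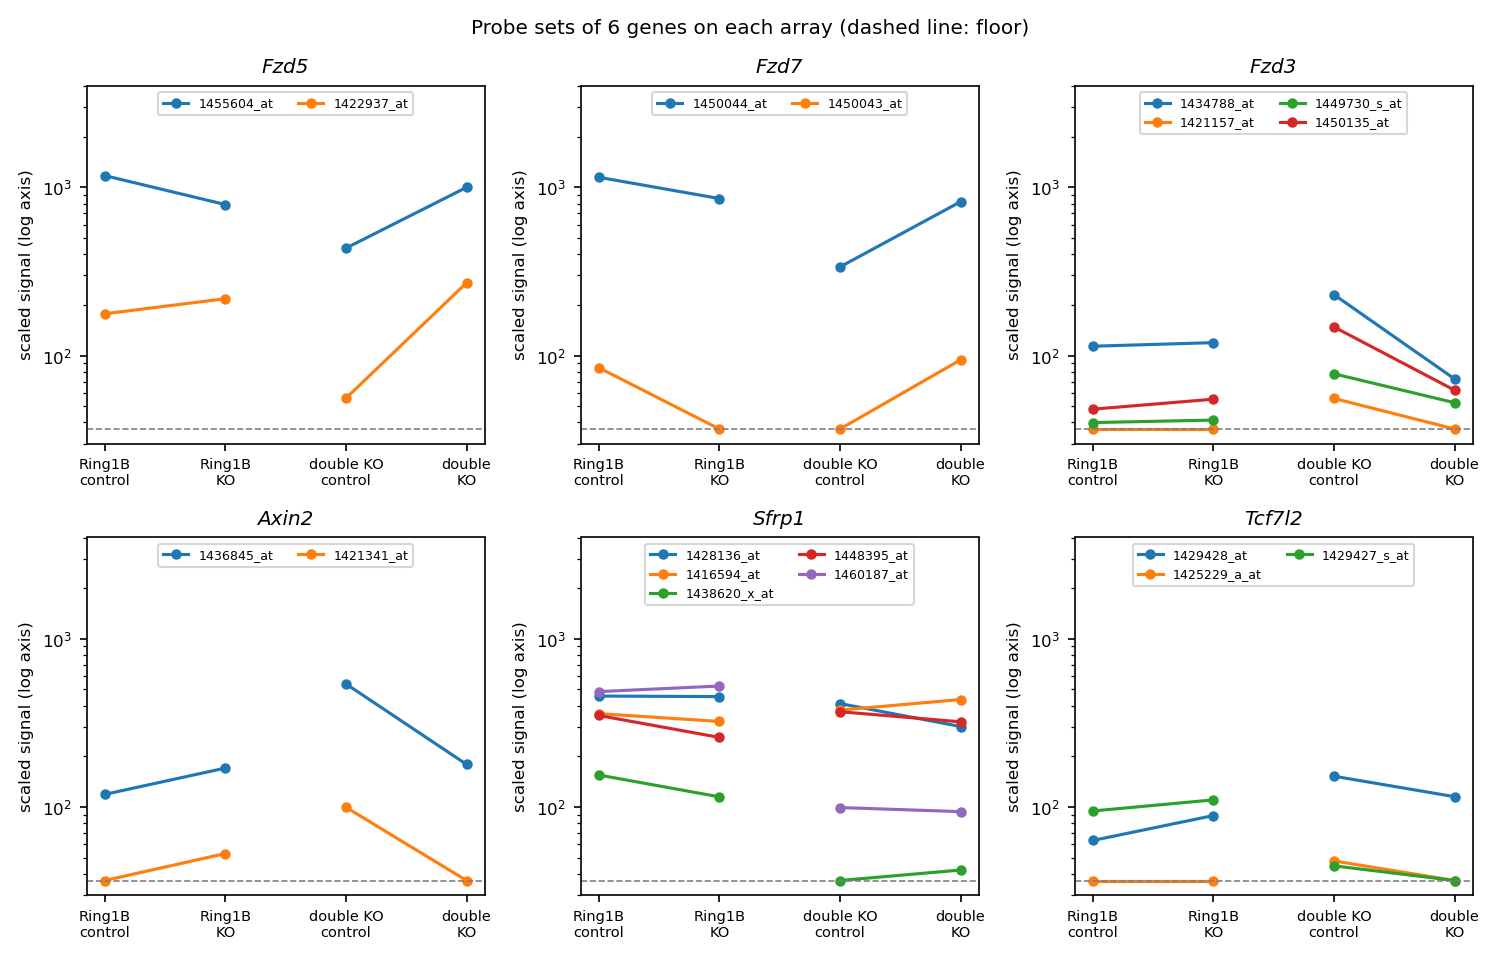
Scaled signal, on a log axis, of each probe set above the floor on at least 1 array, for 6 genes; lines join control and KO within a pair and the dashed line is the floor of 36.6. Both probe sets of Fzd5 and of Fzd7 rise from double KO control to double KO and all those of Fzd3 and Axin2 fall, while 1460187_at and 1438620_x_at of Sfrp1 lie over 2-fold lower on the double KO control when set against the control of the Ring1B pair (differences of -2.29 and -2.08, the second a bound) and its other 3 probe sets do not.

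Among the effectors, Axin2, a negative-feedback scaffold gene that beta-catenin itself switches on, read 119 then 171 in the Ring1B pair and 539 then 179 in the double KO pair. The double KO control was high and the other 3 arrays were low, so that the array labelled double KO was 3.01-fold lower than its control. Probe set 1421341_at behaved alike, at 8.7 then 52.9 in the Ring1B pair and 99.7 then 5.47 in the double KO pair, above the floor on the Ring1B KO and double KO control arrays alone. Axin1, the constitutive scaffold gene, was level within each pair (320.2 then 351 in the Ring1B pair and 579.8 then 556 in the double KO pair). The 2 scaffold genes therefore differed in the double KO comparison, by -1.59 against -0.061, a contrast that was not tested.

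Lef1, a TCF/LEF gene with activating function that is itself a target of the pathway, read 11.0 then 94.8 in the Ring1B pair and 33.7 then 60.9 in the double KO pair. Both KO arrays were above the floor and both controls under it, which makes the array labelled Ring1B KO at least 2.59-fold higher and the array labelled double KO at least 1.66-fold higher than its own control. Its probe set 1421299_a_at rose above the floor on the Ring1B KO array alone (48.4), and the mean over both probe sets was under 2-fold, at 0.89. Tcf7l1, the TCF gene that mainly represses in ES cells, read 795 then 502 in the Ring1B pair and 641 then 794 in the double KO pair, lowest on the array labelled Ring1B KO, with differences of -0.66 and 0.31, and -0.54 and 0.063 at its other probe set 1436207_at. Tcf7l2 was under 2-fold apart in both comparisons (0.49 and -0.40). Its probe sets disagreed between the pairs: 1429428_at read 63.3 then 89.0 in the Ring1B pair and 152 then 115 in the double KO pair, higher on the double KO pair, and 1429427_s_at read 94.8 then 110.3 in the Ring1B pair and 44.7 then 28.7 in the double KO pair, higher on the Ring1B pair.

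The antagonists held the largest upward difference of the pathway. Dkk1, which encodes a secreted Lrp5 and Lrp6 antagonist, read 71.4 then 468 in the Ring1B pair and 28.2 then 3.21 in the double KO pair. The array labelled Ring1B KO was far above the other 3, and both arrays of the double KO pair were under the floor. Probe set 1458232_at rose above the floor on the Ring1B KO array alone, at 102, at least 2.79-fold higher. Dkk2, a related antagonist gene, was likewise highest on that array, at a low signal, reading 31.3 then 79.2 in the Ring1B pair and 10.2 then 4.71 in the double KO pair, and was at least 2.16-fold higher. Against the double KO control in place of their own, Dkk1, Dkk2 and Lef1 in the array labelled Ring1B KO were also at least 2-fold higher, with differences of 3.68, 1.11 and 1.37, each a bound. By that control, 5 of 35 genes were higher and 7 lower by 2-fold, beside 7.98% and 11.1% of all genes. Dkk1 and Dkk2 were the 2 of the 35 genes that were highest on the array labelled Ring1B KO by at least 2-fold over the nearest other array, as were 1.02% of all 13082 genes above the floor on any array.

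The promoters of these Dkk genes are shown, with CpG dinucleotides marked, because both genes were highest on the array labelled Ring1B KO. Promoters occupied by Polycomb complexes are known to be rich in CpG. Windows of 250 bases before the start were read from the RefSeq promoter table (GRCm38.p6), which held 36 windows for 29 of the 43 genes. The median window of these genes had 18.5 CpG and 66.6% G or C, beside 6 CpG and 52.4% over 32851 windows of all genes. The Dkk1 window (chr19:30549497-30549746, minus strand) had 6 and the Dkk2 window (chr3:132085042-132085291, plus strand) 7, under the median of the pathway genes and at or near that of all genes. CpG after the start was not counted and Polycomb occupancy was not measured, so whether these promoters are occupied was not tested. Sequences run 5' to 3', and capitals mark CpG.
Dkk1: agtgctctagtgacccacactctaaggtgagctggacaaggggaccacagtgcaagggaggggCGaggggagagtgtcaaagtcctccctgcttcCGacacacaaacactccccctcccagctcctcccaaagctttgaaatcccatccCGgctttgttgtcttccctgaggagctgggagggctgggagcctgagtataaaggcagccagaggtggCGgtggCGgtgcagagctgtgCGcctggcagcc
Dkk2: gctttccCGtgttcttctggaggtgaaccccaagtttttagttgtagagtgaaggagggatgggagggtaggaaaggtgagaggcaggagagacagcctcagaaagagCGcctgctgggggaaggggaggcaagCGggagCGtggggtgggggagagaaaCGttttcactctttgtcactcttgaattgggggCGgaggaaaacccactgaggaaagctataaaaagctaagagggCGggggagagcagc

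The other antagonists were not 2-fold apart in the Ring1B comparison. Dkk3, a divergent Dickkopf gene, read 133 then 145 in the Ring1B pair and 138 then 53.6 in the double KO pair, lowest on the array labelled double KO, which was 2.58-fold lower than its control. Probe set 1448669_at of Dkk3 differed by -0.37, in the same direction and under 2-fold, and with the mean of the 2 probe sets the difference was -0.87. Sfrp2, a secreted Frizzled-related gene, read 169.9 then 158 in the Ring1B pair and 453 then 164 in the double KO pair, high on the double KO control alone and 2.76-fold lower in the array labelled double KO. Sfrp4 was the antagonist gene that went the other way, at 126 then 102 in the Ring1B pair and 68.2 then 146 in the double KO pair, 2.14-fold higher than a control that was the lowest of the 4 arrays.

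Sfrp1, another Frizzled-related gene, was under 2-fold apart at its probe set with the highest mean, reading 457 then 453 in the Ring1B pair and 412 then 301 in the double KO pair. Of its 5 probe sets, 1416594_at and 1448395_at also stayed within 259 to 436 on all arrays. The other 2 set the pairs apart: 1460187_at read 485 then 524 in the Ring1B pair and 99.3 then 93.9 in the double KO pair, and 1438620_x_at read 155 then 115 in the Ring1B pair and 11.4 then 42.2 in the double KO pair. Within each pair 4 of the 5 were under 2-fold apart; for 1438620_x_at in the double KO pair the control was under the floor and the size of the difference is not known. The cause of the disagreement was not tested. The intracellular antagonist genes Nkd1 and Nkd2 and the gene Sfrp5 were lower in the array labelled double KO, by less than 2-fold, with differences of -0.41, -0.74 and -0.90; Nkd2 read 38.3 then 38.0 in the Ring1B pair and 99.8 then 59.8 in the double KO pair. One further Nkd2 probe set, 1419465_at, passed 2-fold, at -1.29. The median over antagonists was -0.011 for 9 in the Ring1B comparison and -0.74 for 7 in the double KO comparison.

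**Figure D3:**
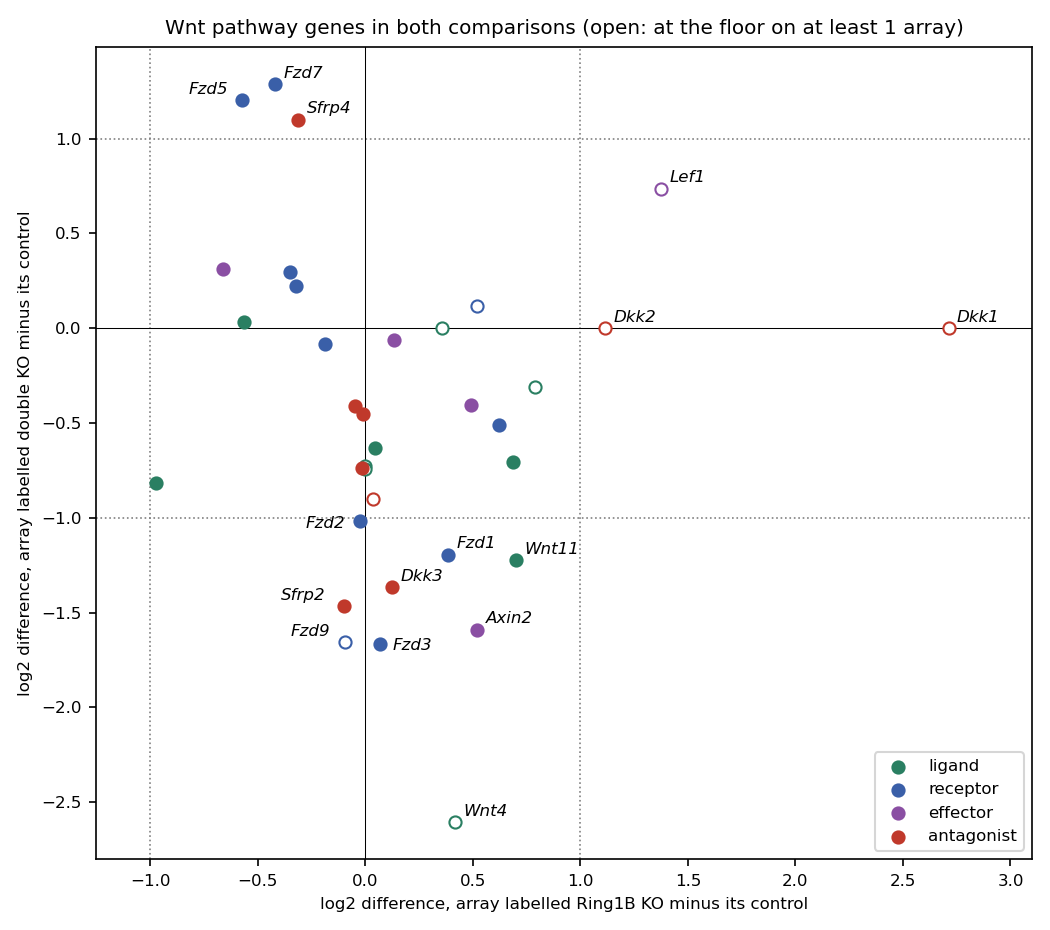
Log2 difference of 35 genes in the Ring1B comparison (horizontal) and the double KO comparison (vertical); dotted lines mark 2-fold, and open points were at the floor on at least 1 array, so that their position is a bound or an unmeasured 0. Dkk1, Dkk2 and Lef1 pass 2-fold on the horizontal axis alone and 12 genes on the vertical axis alone.

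The 12 genes called in the double KO comparison were next set against the other control. Of the 12, 7 were highest of the 4 arrays on the double KO control (Wnt4, Wnt11, Fzd2, Fzd3, Fzd9, Axin2 and Sfrp2) and 3 were lowest on it (Fzd5, Fzd7 and Sfrp4). A gene chosen for a gap between these arrays is likely to be extreme on one of them, and 68.6% of all 1607 genes so called were highest or lowest on this control, beside 83.3% of the 12. Against the Ring1B control in place of its own, the array labelled double KO was at least 2-fold apart in the same direction for Dkk3 alone (-1.31), 8.33% of the 12 beside 28.1% of the 1607. By that control, 0 of 31 genes were higher and 2 lower by 2-fold (Dkk3 and Wnt5a), beside 7.82% and 9.87% of all genes. Fzd2, Axin2, Fzd5 and Fzd7 took the opposite direction, at 0.67, 0.59, -0.23 and -0.48. The second probe sets of Fzd5 (1422937_at) and Fzd7 (1450043_at) did not turn: they stayed higher in the array labelled double KO, at 0.61 and 0.16, under 2-fold. Wnt4, Fzd1, Fzd3 and Fzd9 kept their direction at -0.66 (a bound), -0.97, -0.65 and -0.87 (a bound), and Wnt11, Sfrp2 and Sfrp4 were within 0.21 of the Ring1B control. Wnt5a, not called against its own control, was at least 2.2-fold lower against this one. These comparisons share the double KO array, so they are not independent of each other, and those with the other pair's control also span the difference between pairs.

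**Figure D4:**
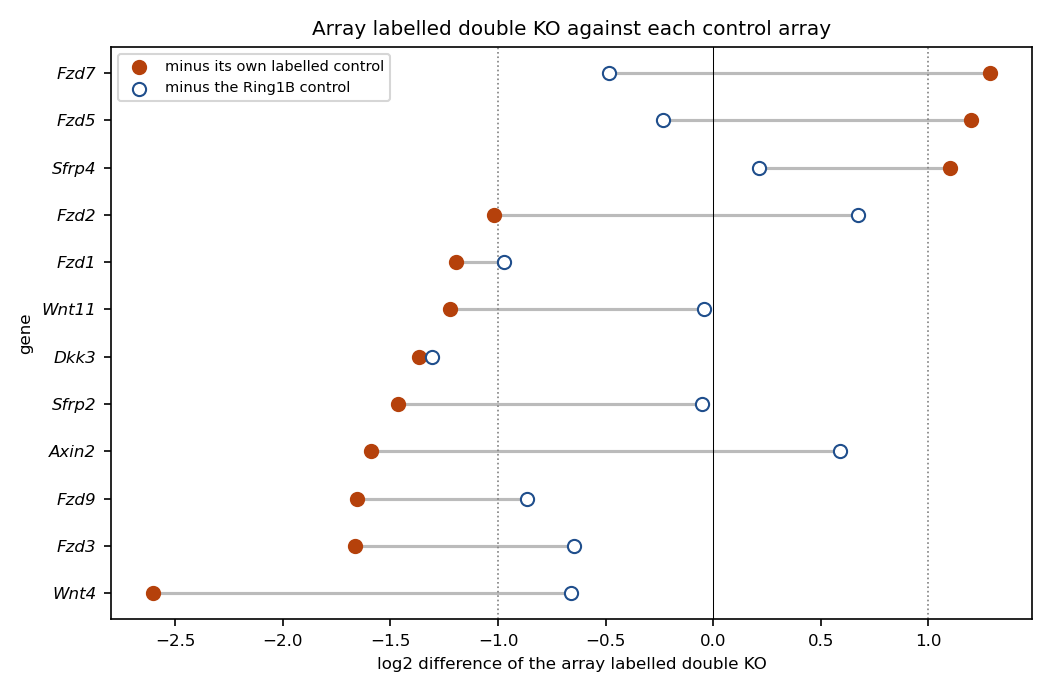
Log2 difference of the array labelled double KO from its own control (filled) and from the Ring1B control (open), for the 12 genes at least 2-fold apart from its own control; dotted lines mark 2-fold. The open point of Dkk3, at -1.31, is the one left beyond 2-fold.

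The 2 control arrays, both labelled wild-type, were 2-fold apart in 13 pathway genes, as against 12 and 3 in the KO comparisons. The double KO control exceeded the Ring1B control by 2-fold for 11 of 32 genes and was as far below it for 2, beside 12.2% and 8.15% of all 12646 genes. Axin2 led upward at 2.18, followed by Wnt4 (1.94), Fzd2 (1.69) and Wnt7b (1.61), and the 2 lower genes were Fzd7 (-1.77) and Fzd5 (-1.43). On the double KO control, Wnt4, Fzd2, Axin2 and Sfrp2 were highest of the 4 arrays by at least 2-fold over the nearest, as were 2.74% of all genes, and Fzd7 was lowest by as much, as were 0.550%. Dkk3 was lowest on the array labelled double KO by as much, as were 2.26%. The pairs were deposited at different overall signal (trimmed means of 500.0 and 500.0 against 160 and 147), and without scaling to a common mean 0 of 36 genes were higher and 16 lower, beside 0.705% and 65.2% of all genes. What sets the control arrays apart was not tested.

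Promoter windows of 3 genes that set the double KO control apart are shown next, 2 highest there and 1 lowest. Wnt4 (chr4:137277385-137277634, plus strand) had 44 CpG in 250 bases, Axin2 (chr11:108920099-108920348, plus strand) 24 and Fzd7 (chr1:59481897-59482146, plus strand) 17, so that Wnt4 and Axin2 were above both medians given for the Dkk windows and Fzd7 lay between them. The window of Sfrp2, also highest on this control by 2-fold, is not shown. It had 16 CpG and lay between the medians too, under the 17 of Fzd7. Fzd2, the remaining gene highest there by 2-fold, had no window. With Fzd7 as the 1 low gene, whether this count sets high and low genes apart was not tested. Capitals mark CpG.
Wnt4: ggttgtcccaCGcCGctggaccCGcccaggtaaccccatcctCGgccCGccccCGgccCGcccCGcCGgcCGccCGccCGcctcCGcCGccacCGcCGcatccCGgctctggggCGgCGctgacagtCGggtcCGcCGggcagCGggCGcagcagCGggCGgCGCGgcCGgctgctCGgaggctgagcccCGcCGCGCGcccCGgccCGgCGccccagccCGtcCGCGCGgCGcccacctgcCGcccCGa
Axin2: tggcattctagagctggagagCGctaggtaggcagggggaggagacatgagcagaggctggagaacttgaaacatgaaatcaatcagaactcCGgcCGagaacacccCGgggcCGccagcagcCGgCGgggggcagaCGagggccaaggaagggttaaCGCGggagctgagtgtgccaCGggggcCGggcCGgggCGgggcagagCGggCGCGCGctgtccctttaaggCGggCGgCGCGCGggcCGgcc
Fzd7: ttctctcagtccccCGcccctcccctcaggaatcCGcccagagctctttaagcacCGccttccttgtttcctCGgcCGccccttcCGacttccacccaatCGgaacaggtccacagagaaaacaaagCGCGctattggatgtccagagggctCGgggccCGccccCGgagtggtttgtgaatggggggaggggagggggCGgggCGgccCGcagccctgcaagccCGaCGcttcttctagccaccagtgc
The TCF/LEF core CTTTGAT and its reverse complement ATCAAAG were searched on these windows. They were found in 2 of the 36 windows (5.56%), beside 3.21% of the windows of all genes, namely 1 of 2 windows of Wnt11 and 1 of 3 of Wnt5b. The Wnt11 window (chr7:98834862-98835111, plus strand) is shown, with the match in capitals. Among called genes that had a window, Wnt11 is the one with a match. The called genes Fzd2, Fzd3, Dkk3 and Sfrp4 had no window and were not searched. A match is a string of letters and not a measured binding site.
Wnt11: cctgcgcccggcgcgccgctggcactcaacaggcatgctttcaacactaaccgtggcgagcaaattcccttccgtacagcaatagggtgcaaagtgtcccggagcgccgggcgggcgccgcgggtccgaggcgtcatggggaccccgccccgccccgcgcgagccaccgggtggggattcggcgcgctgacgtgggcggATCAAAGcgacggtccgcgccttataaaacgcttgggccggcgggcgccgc

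Other genes of the pathway were read from lists of secretion and ligand co-factors, membrane proteins, cytoplasmic transducers and nuclear co-factors. Of the 59 above the floor in the Ring1B comparison, 3 were higher and 1 lower by 2-fold, with a median of -0.034. These are 5.08% and 1.69%, beside 3.54% and 2.61% of all named genes. Notum, which encodes an enzyme that inactivates Wnt proteins, was 2.27-fold higher (51.8 to 118), and Prickle2, of planar polarity, 2.16-fold higher. Sox17, an endoderm factor gene whose product can bind beta-catenin, was 5.17-fold higher, and Cxxc5 was 2.64-fold lower. Genes of the core machinery, among them Ctnnb1, Gsk3b and Apc, differed by -0.093, 0.17 and -0.50.

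In the double KO comparison, 7 of 59 such genes were lower and 2 higher by 2-fold, with a median of -0.11. These are 11.9% and 3.39%, near the 9.99% and 3.02% of all named genes. The lower ones were Sox17, at least 2.14-fold lower, the formin gene Daam1, 2.12-fold lower, Wls, the carrier that brings Wnt proteins to the cell surface, 2.81-fold lower (188 to 66.8), the agonist gene Rspo1, at least 2.42-fold lower, Prickle1, 3.57-fold lower, and the beta-catenin co-factor genes Bcl9 and Bcl9l, 2.09-fold lower and 2.07-fold lower. Notum was higher here too, 2.6-fold higher (69.9 to 182), as was the co-repressor gene Tle4, 2.53-fold higher. Notum was thus at least 2-fold higher than the own control in both comparisons. Against the Ring1B control, the array labelled double KO stayed 2-fold apart for 4 of the 9, namely Wls (-1.76), Notum (1.81), Sox17 (-1.69, a bound) and Bcl9 (-1.44), and not for the other 5, among them Tle4 (-0.15). With the control exchanged in the Ring1B comparison, Notum was under 2-fold higher, at 0.75.

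Genes known as targets of the pathway went different ways. Of 17 measured in the Ring1B comparison, 3 were at least 2-fold higher, Cdx1 (2.8-fold higher), Fst (2.38-fold higher) and Tnfrsf19 (at least 2.27-fold higher), and Mycn was 2.09-fold lower. The shares are 17.6% higher and 5.88% lower, beside 3.54% and 2.61% of all named genes. In the double KO comparison 5 of 19 measured were lower by 2-fold, led by Id2 (5.5-fold lower), Eomes (5.18-fold lower) and Cdx1 (2.95-fold lower), and Mycn and Tnfrsf19 were 2.1-fold higher and 2.07-fold higher. The shares are 26.3% lower and 10.5% higher, beside 9.99% and 3.02% of all named genes. Against the Ring1B control, the array labelled double KO had 0 of 16 lower and 2 higher by 2-fold, beside 9.87% and 7.82% of all genes. Id2, Eomes and Cdx1 differed there by -0.055, 0.036 and 0.93. Against the double KO control, the array labelled Ring1B KO had 3 of 19 higher and 5 lower, beside 7.98% and 11.1%. Cdx1 was lower there, at -1.01, while Fst, Tnfrsf19 and Mycn differed by 2.15, 0.24 and -0.44. Id2, Eomes and Cdx1 read 1677, 453 and 263 on the double KO control, the highest of the 4 arrays for each, as for Axin2. With each KO array set against its own control, the medians of the list were 0.14 and 0.29, beside -0.017 and -0.055 over all named genes.

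Markers of other cell types moved with these results, and in bulk RNA fewer cells of a type and less RNA per cell cannot be told apart. Over all named genes, 3.54% were higher and 2.61% lower by 2-fold in the Ring1B comparison. The shares in the double KO comparison were 3.02% higher and 9.99% lower. In the Ring1B pair, where Dkk1 was high, 10 of 14 endoderm markers were at least 2-fold higher, and the summed signal of the 15 was 7146 in the control and 22282 in the KO; Afp was under the floor on both arrays. There too, 3 of 7 mesoderm and primitive streak markers were higher by 2-fold, Pdgfra, Twist1 and Msx2, with a summed signal of 637 then 1889 and Mixl1, Kdr and Evx1 under the floor on both arrays. Of 9 trophoblast markers, 2 were higher and 1 lower by 2-fold. Against the double KO control instead, the array labelled Ring1B KO was 2-fold higher for 12 of 14 endoderm markers and lower for 0. Of 9 mesoderm and primitive streak markers, 1 was then higher and 3 were lower, and of 9 trophoblast markers 1 and 4. All named genes gave 7.98% higher and 11.1% lower. In the double KO pair, where Axin2 and Wnt4 were high in the control, 6 of 9 trophoblast, 5 of 9 mesoderm and primitive streak and 7 of 11 endoderm markers were lower by 2-fold in the array labelled double KO, and summed trophoblast signal was 9859.8 against 2673, with Elf5 under the floor on both. Of 15 fibroblast markers, which a feeder layer could give, 12 were at least 2-fold lower there and 0 were 2-fold apart in the Ring1B pair. Summed fibroblast signal was 14338 then 20703 in the Ring1B pair and 8252 then 2794 in the double KO pair. Against the Ring1B control instead, the array labelled double KO was 2-fold lower for 9 of 12 endoderm and 13 of 15 fibroblast markers, with 0 higher. For mesoderm and primitive streak 1 of 7 was lower and 0 higher, and of 8 trophoblast markers 3 were higher and 1 lower. All named genes gave 7.82% higher and 9.87% lower. In the array labelled Ring1B KO, 7 of 16 fibroblast markers were higher and 1 lower against the double KO control. Of 7 neural markers in the Ring1B pair, 1 was higher and 1 lower by 2-fold, Zic1 (28.1 then 221) and Neurod1 (1004 then 137), and in the double KO pair 2 of 6 were higher and 2 lower. Neurog2 was under the floor on each array. Sox17, Eomes, Evx1, Mixl1, Cdx2 and Ascl2 stand both in these marker lists and in the lists of other pathway or target genes. The part of these markers in the Wnt results was not tested.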

How the data were processed

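Transcripts of mouse ES cells were measured on 4 Affymetrix arrays, 1 per labelled group. The deposited values are intensity signals per probe set that the authors made with MAS5, as the submitters' processing notes name it; version, target value and background or detection settings are not given in the sources used here. Each array was scaled to a common 2%-trimmed mean of 277 (factors 0.554, 0.554, 1.73 and 1.89 for Ring1B control, Ring1B KO, double KO control and double KO), which assumes alike total signal. Signals were floored at 36.6, the 40th percentile over the 34958 probe sets with 1 gene symbol, and log2-transformed. The 932 probe sets with several symbols and 9211 with none were not named. Names came from the platform annotation, and 34754 matched RefSeq identifiers. The probe set with the highest mean log2 signal stood for a gene, before flooring and with signals under 0.1 set to 0.1.

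A gene was counted in a comparison where at least 1 of its 2 arrays was above the floor, and called at a 2-fold difference, bounds included. Genes named were all called members and, of other lists, up to 3 per direction. Members and lists were chosen with earlier results of these data known, and support nothing by themselves. Core machinery genes, the probe sets that disagreed, and the promoters shown were chosen after values were seen. Steps were tested on simulated data, with changes larger than 2-fold in genes well above the floor. Calls near 2-fold or with a value at the floor were not covered by that check. Alternatives changed scaling, floor, the choice of probe set and the control array. Python 3.11.15, numpy 2.4.6 and pandas 2.3.3 were used.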

Additional observations from a re-analysis of the deposited data

Results flagged for a closer look

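The 90 pathway probe sets, 72 other pathway genes and 21 target genes were searched for opposite differences. Of these, 4 were at least 2-fold apart from their own control in both comparisons and in opposite directions. The same count over all named genes was not made, so the 4 have no background share beside them. With 1 array per group the difference between the comparisons was not tested. The Fzd7 probe set 1450043_at differed by -1.21 in the Ring1B and 1.37 in the double KO comparison, a gap of 2.58 on the log2 scale, with both low values under the floor. Mycn, a proto-oncogene of proliferating progenitors, differed by -1.06 and 1.07, a gap of 2.14. Cdx1, a caudal-type homeobox gene, went the other way, at 1.49 and -1.56, a gap of -3.05. Sox17 differed by 2.37 and by a bound of -1.10, a gap of -3.47. With the control arrays exchanged, Mycn differed by -0.44 and 0.45, under 2-fold. Cdx1 turned in both comparisons, at -1.01 and 0.93. Sox17 kept its directions, at 2.97 and -1.69 (a bound). The Fzd7 probe set was then unmeasured in the Ring1B comparison and differed by 0.16 in the double KO comparison.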

How the results depend on the processing

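Calls were recomputed under 8 processing alternatives and with the other pair's control array. In the Ring1B comparison Dkk1 and Dkk2 stayed at least 2-fold higher wherever they were measured (1.89 to 3.68 and 1.01 to 1.34), and Lef1 did except with the mean over probe sets. In the double KO comparison Fzd5, Fzd7, Axin2 and Sfrp2 stayed at least 2-fold apart under every processing alternative, and the other 8 lost this under at least 1. With a floor at the 20th percentile, Ring1B counts became 5 higher and 2 lower (5.54% and 4.78% of all genes), the double KO lower count 14 (13.3%), and the control arrays' lower count 6 (10.7%). With it at the 60th percentile the Ring1B higher count was 1 (1.85%), the double KO lower count 3 (5.77%) and the control arrays' higher count 4 (10.4%), since fewer genes were measured. With the mean over probe sets these counts were 1 lower in Ring1B (1.77%), 5 lower in double KO (6.96%) and 5 higher between controls (7.8%). With the other control the Ring1B counts were 5 higher and 7 lower, against 7.98% and 11.1% of all genes, and the double KO counts 0 and 2, against 7.82% and 9.87%. The Ring1B median became -0.35 and the double KO median -0.052. Without scaling, the control arrays gave 0 higher and 16 lower (0.705% and 65.2% of all genes), with a median of -0.75 beside -1.32 over all genes (0.13 when scaled). There Wnt7b (-0.029), Wnt11 (-0.46), Fzd3 (-0.62), Fzd6 (-0.59), Tcf7l2 (-0.37), Sfrp2 (-0.23), Sfrp5 (-0.48) and Nkd2 (-0.26) turned negative. With the other control Fzd2 (0.67), Fzd5 (-0.23), Fzd7 (-0.48) and Axin2 (0.59) turned. The cause of these changes was not tested. No paired analysis was possible because each group has 1 array. The signal over background limits the dim ligands most.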
